A study of Sus scrofa with 14 samples.

Results

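Fibroblast growth factors (FGFs) are secreted proteins that bind heparan sulfate on cell surfaces and act through receptor tyrosine kinases, the FGF receptors. In the mammary gland of the mouse, FGF10 from the mesenchyme and its receptor FGFR2 on the epithelium are needed for the gland to form and for ducts to branch, and FGF2 and FGFR1 are also known to act in the growing ductal tree. The genes described here are the ligands FGF1, FGF2, FGF7 and FGF10 and the receptors FGFR1, FGFR2 and FGFR3, followed through pregnancy, lactation and involution of the porcine gland. The rule that chose them uses their names and no measured value, though it was set with earlier results of these data known.

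Of the 7 genes listed, 5 (FGF1, FGF10, FGFR1, FGFR2 and FGFR3) carry their symbol in the deposited gene lists, which hold 30071 identifiers, 15983 of them with a symbol. FGF2 was found by its identifier alone, with the symbol taken from a reference table, which makes 6 measured genes. FGF7, a ligand of the epithelial form of FGFR2, was not analysed here. In the RefSeq annotation of the pig assembly Sscrofa11.1, FGF1 lies at chr2:144133846-144241345, FGF2 at chr8:101278877-101344084, FGF10 at chr16:28695465-28779953, FGFR1 at chr15:48053895-48106634, FGFR2 at chr14:131183095-131285001 and FGFR3 at chr8:879151-894968. Unique molecular identifiers (UMIs), each standing for 1 captured RNA molecule, were counted per gene, so the epithelial and mesenchymal splice forms of a receptor were not told apart.

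The samples were mammary glands of Sus scrofa at day 90 of gestation (G90), day 0 and day 20 of lactation (L0, L20) and day 2 and day 7 of involution (PI2, PI7). Frozen glands of 2 sows per stage gave 10 libraries of single nuclei. A G90 gland and a PI2 gland gave 1 tissue section each for spatial transcriptomics, and colostrum (L0) and mature milk (L20) gave 1 library of milk cells each. The study describes multiparous sows, and nothing in the labels sets the animals apart other than the stage. Sows are named below by stage and replicate number, such as G90_1.

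The gland libraries held 18962138 to 53165191 UMIs, and 126833 of 128233 nuclei passed the filters, with a median of 1382 to 2496 UMIs per nucleus. Levels are given as UMIs per 1000000 UMIs (CPM) of a library or of the nuclei of a class. Nuclei were put into classes by marker genes, none of which is an FGF gene, and 30661 nuclei stayed without a class. Luminal nuclei made up 49.6 ± 20.7% (SD, n = 10) of a gland, fibroblasts 7.80 ± 8.18% and myoepithelial nuclei 1.72 ± 1.02%. One gland stood apart: L20_2 held 8.09% luminal nuclei, 28.3% fibroblasts and 464 of the 565 adipocyte nuclei of the series. CSN2, the gene of the milk protein beta-casein, stood in luminal nuclei at 120 and 2572 CPM at G90, 1996 and 2088 CPM at L0, 192 and 28.6 CPM at L20, 3.22 and 475 CPM at PI2, and 2.28 and 0.327 CPM at PI7. The L20 glands thus lay below G90_2 and PI2_2, although the label places them in lactation, and stages are used as the labels give them. The Schwann-gated nuclei also carried luminal genes such as ELF5 and EHF, so they are called by their gate only. Any pair of gland libraries shared 52 to 205 cell barcodes, and the milk pair shared 284.

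The first question was which cells of the gland carry the ligands and which the receptors. Among the 10 classes with enough nuclei for a test, FGF10 was highest in fibroblasts and FGFR1 and FGFR2 in myoepithelial nuclei in all sows. Adipocytes, too few for a test and mostly from L20_2, also carried FGF10 and FGF2. FGF2 was shared between fibroblasts and myoepithelial nuclei, FGF1 between mural cells and fibroblasts, and FGFR3 was raised in luminal and lymphatic endothelial nuclei. Each class was compared with the mean of the other classes on UMIs summed per sow, by edgeR's quasi-likelihood test with the sow as a block and Benjamini-Hochberg adjustment over 11549 genes. A difference was called at an adjusted p under 0.05 and a change of more than 1 on the log2 scale. Of 60 tests (6 genes in 10 classes), 25 were called, 11 higher and 14 lower, where 13.0% of all gene and class tests were called, 7.16% higher and 5.82% lower.

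**Figure D1:**
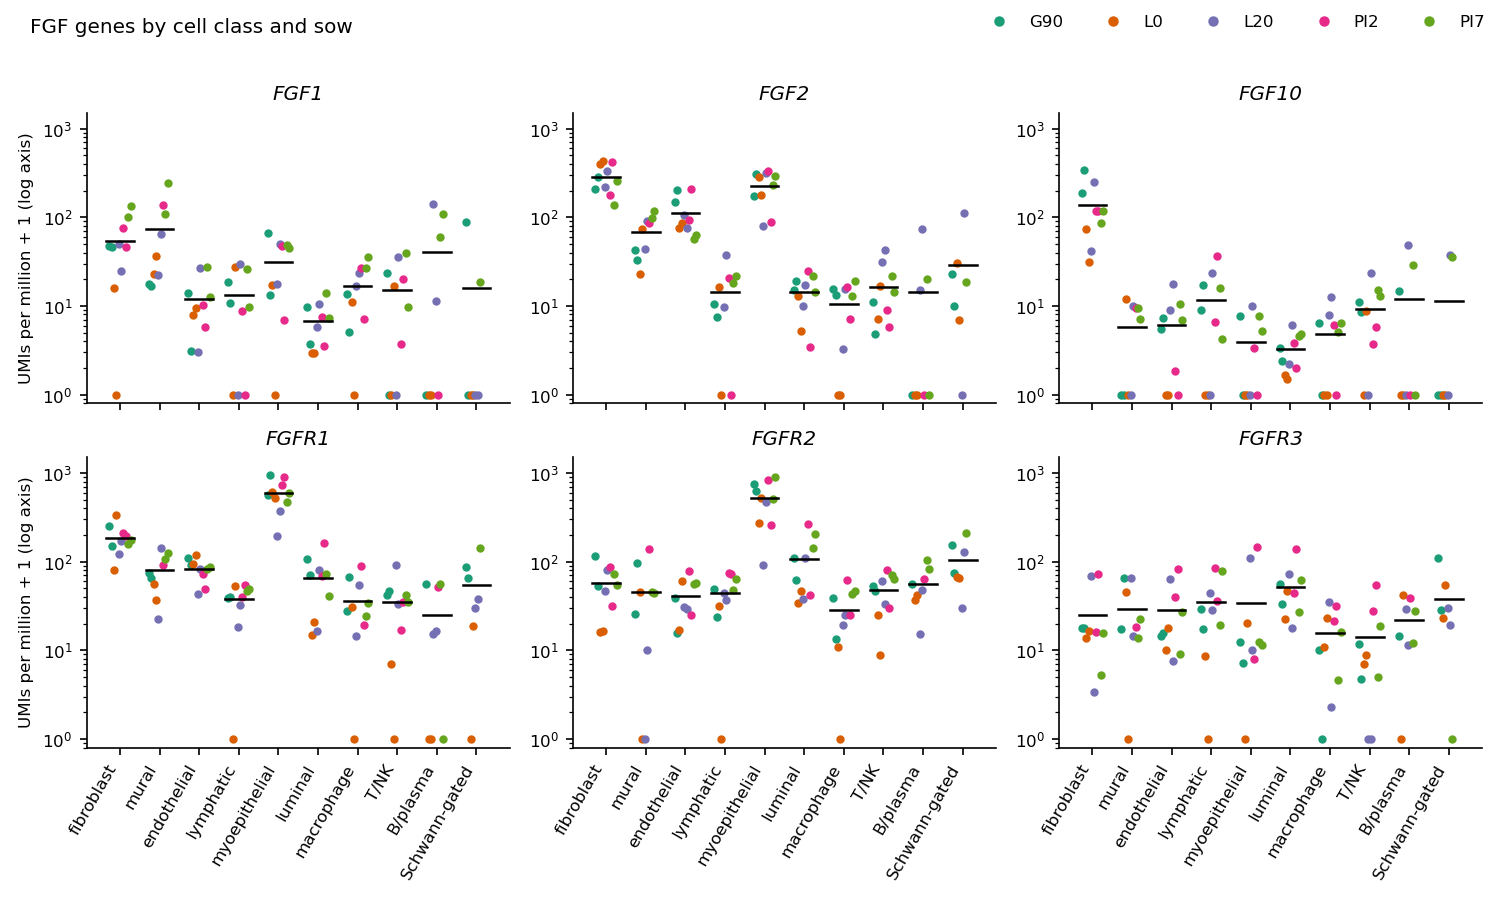
Level of each FGF gene (CPM + 1, log axis) in each gated class of nuclei, with 1 point per sow with at least 20 nuclei of the class and a bar at the mean over sows. FGF10 stands out in fibroblasts (mean 135 CPM), FGFR1 and FGFR2 in myoepithelial nuclei (means 590 and 522 CPM).

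FGF10, the mesenchymal ligand that signals to epithelia, reached 135 ± 96.3 CPM (SD, n = 10 sows) in fibroblasts. The fibroblast values were 189 and 336 CPM at G90, 72.3 and 30.6 CPM at L0, 40.2 and 248 CPM at L20, 118 and 117 CPM at PI2, and 84.2 and 116 CPM at PI7. Every one of these exceeded the FGF10 level of each other tested class of the same sow, although the L0_2 value rests on 2 UMIs. The other tested classes had means of 11 CPM (B and plasma cells) or less, down to 2.24 ± 1.55 CPM in luminal nuclei and 2.89 ± 3.49 CPM in myoepithelial nuclei. Fibroblast FGF10 was higher than the mean of the other classes by 4.64 on the log2 scale (SE 0.17, adjusted p = 4.8e-43, edgeR), a direction in which 8.75% of genes were called for fibroblasts. It was also called above each of the 9 other classes taken singly, where 18.7% of the tests of all genes over the 45 pairs of classes were called. FGF10 was lower than the mean of the other classes in luminal nuclei (log2 difference -1.85, SE 0.26, adjusted p = 1.1e-09) and in myoepithelial nuclei (-1.20, SE 0.39, adjusted p = 0.013), where 14.3% and 6.35% of genes were called lower. The myoepithelial call was lost without L20_2 (-1.13, adjusted p = 0.056), without the lactation glands (-0.99, adjusted p = 0.15), without nuclei of mixed markers (-0.80, adjusted p = 0.23) and without the sow block (-1.31, adjusted p = 0.0568). Fibroblasts held 56.4 ± 19.2% of a gland's FGF10 UMIs while making up 7.80% of its nuclei.

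FGF2, a ligand that binds heparan sulfate in the extracellular matrix and stimulates many mesenchymal and endothelial cells, was high in both fibroblasts and myoepithelial nuclei. In fibroblasts it ranged from 135 CPM (PI7_1) over a median of 269 to 429 CPM (L0_2), and in myoepithelial nuclei from 78.3 CPM (L20_1) over a median of 256 to 328 CPM (PI2_1). Among the tested classes the highest was the fibroblasts in 6 sows and the myoepithelial nuclei in 4, so the sows did not give the same order. Against the mean of the other classes the log2 difference was 3.25 in fibroblasts (SE 0.18, adjusted p = 9.9e-30), 2.77 in myoepithelial nuclei (SE 0.19, adjusted p = 4.1e-23) and 1.72 in endothelial nuclei (SE 0.21, adjusted p = 3.3e-11), with 8.75%, 6.62% and 8.55% of genes called higher. Myoepithelial nuclei and fibroblasts did not differ beyond their spread (log2 difference -0.43, SE 0.26, adjusted p = 0.27), while fibroblasts stood above endothelial nuclei (1.38, SE 0.27, adjusted p = 1.2e-05). Luminal, lymphatic, macrophage, T and NK cell, and B and plasma cell nuclei were lower (5.65% of genes were called lower in lymphatic nuclei), with log2 differences from -1.28 to -1.97. The B and plasma cell call (adjusted p = 0.046) was lost in 11 of 20 alternatives, 7 of them the removal of 1 sow, and the luminal call with no filter on low counts (-0.95).

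FGF1, a ligand able to bind every FGF receptor, was the least sharply placed of the ligands. In mural cells, the pericytes and smooth muscle cells of vessels, it was 16.5 and 16.0 CPM at G90, 22.2 and 35.9 CPM at L0, 21.5 and 63.4 CPM at L20, 137 in PI2_1, and 109 and 239 CPM at PI7, with PI2_2 left out for having 13 mural nuclei. In fibroblasts it was 45.8 and 45.4 CPM at G90, 14.9 and 0 CPM at L0, 49.0 and 23.8 CPM at L20, 75.3 and 44.8 CPM at PI2, and 99.3 and 133 CPM at PI7. The 0 stands for no UMI among 65308 in 48 nuclei of L0_2, which allows up to 45.9 CPM by counting error alone. In fibroblasts the PI7 sows were the highest and the L0 sows the lowest, and in mural cells the 3 highest values were those of PI2_1 and both PI7 sows. The differences from the mean of the other classes were 2.12 in mural cells (SE 0.30, adjusted p = 7.7e-09) and 1.72 in fibroblasts (SE 0.24, adjusted p = 2.0e-09), where 6.48% and 8.75% of genes were called higher, and mural cells and fibroblasts did not differ from each other beyond their spread (fibroblast minus mural -0.36, SE 0.35, adjusted p = 0.62). Luminal nuclei carried 5.76 ± 3.71 CPM of FGF1 and were lower than the mean of the other classes (-1.78, SE 0.29, adjusted p = 7.6e-08). The highest tested class for FGF1 was mural in 6 sows, fibroblast in 2, and B and plasma or Schwann-gated in 1 each. B and plasma cells had 39.8 ± 56.8 CPM (SD, n = 8 sows) and were not called (0.65, SE 0.44, adjusted p = 0.34, edgeR).

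FGFR1, the receptor that mesenchymal cells commonly use, had its highest level in myoepithelial nuclei, the contractile basal cells that surround alveoli and ducts. The myoepithelial values were 559 and 949 CPM at G90, 612 and 528 CPM at L0, 195 and 371 CPM at L20, 723 and 896 CPM at PI2, and 466 and 602 CPM at PI7. Both L20 values lay below those of the other 8 sows. In fibroblasts FGFR1 ranged from 78.7 CPM (L0_1) over a median of 171 to 337 CPM (L0_2), and in luminal nuclei from 14.0 CPM (L0_1) over a median of 69.0 to 159 CPM (PI2_2). The myoepithelial level exceeded the fibroblast level in all 10 sows. Against the mean of the other classes, myoepithelial nuclei were higher by 3.45 (SE 0.16, adjusted p = 4.5e-35) and fibroblasts by 1.61 (SE 0.18, adjusted p = 5.1e-13) on the log2 scale, and myoepithelial nuclei exceeded fibroblasts by 1.66 (SE 0.25, adjusted p = 2.1e-08). Among immune cells FGFR1 was lower in B and plasma cells (-1.56, adjusted p = 0.0019), in T and NK cells (-1.41, adjusted p = 4.2e-06) and in macrophages (-1.03, adjusted p = 0.00037), where 3.55%, 7.69% and 11.0% of genes were called lower. The macrophage difference fell short of the fold for a call in 8 of 21 alternatives, 6 of them the removal of 1 sow, and was closest to 0 without PI7_1 (-0.77).

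FGFR2, the receptor of FGF10 in epithelia, followed the same myoepithelial peak. It was 758 and 622 CPM at G90, 274 and 528 CPM at L0, 90.2 and 474 CPM at L20, 828 and 257 CPM at PI2, and 502 and 890 CPM at PI7 in myoepithelial nuclei. In luminal nuclei, the secretory side of the epithelium, it was 109 and 60.6 CPM at G90, 33.4 and 45.6 CPM at L0, 37.2 and 110 CPM at L20, 266 and 41.1 CPM at PI2, and 143 and 206 CPM at PI7. Each sow's myoepithelial value was above its luminal value, and the 2 sows of a stage could lie far apart, as at PI2. The log2 difference of myoepithelial nuclei from the mean of the other classes was 3.30 (SE 0.13, adjusted p = 2.6e-40), with 6.62% of genes called higher, and luminal nuclei lay 2.31 below myoepithelial nuclei (log2 difference -2.31, SE 0.20, adjusted p = 3.9e-18). Luminal FGFR2 was above the mean of the other classes by 0.74 (SE 0.14, adjusted p = 3.2e-06), under the fold needed for a call, and by 0.41 with DESeq2's scaling, where the median of all genes in the luminal contrast moves from 0.18 to -0.16. Taken relative to that median, luminal FGFR2 was higher by 0.56 to 0.58. With no filter on low counts its difference from the other classes was 1.33 and was called (adjusted p = 3.8e-16, edgeR). Macrophages carried less FGFR2 than the mean of the other classes (-1.30, SE 0.21, adjusted p = 1.0e-07).

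The share of nuclei outweighed the level in the whole gland. Luminal nuclei held 61.3 ± 17.6% of a gland's FGFR2 UMIs and 46.9 ± 20.4% of its FGFR1 UMIs, against 7.89 ± 4.89% and 11.3 ± 4.73% in the far fewer myoepithelial nuclei. In whole-gland sums a change in the number of cells of a type and a change in the RNA per cell cannot be told apart.

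FGFR3, the remaining receptor of the group, was raised in luminal and lymphatic endothelial nuclei. In luminal nuclei it was 55.2 and 32.2 CPM at G90, 21.3 and 45.2 CPM at L0, 71.5 and 17.0 CPM at L20, 43.8 and 140 CPM at PI2, and 26.4 and 60.8 CPM at PI7. In lymphatic nuclei, which line the vessels that drain the tissue, it ranged from 0 CPM (L0_2, 32 nuclei) over a median of 28.0 to 83.9 CPM (PI2_1). The luminal values overlapped between all stages. Luminal FGFR3 was above the mean of the other classes by 1.32 (SE 0.18, adjusted p = 7.4e-10) and lymphatic FGFR3 by 1.17 (SE 0.23, adjusted p = 1.6e-05), with 8.08% and 8.68% of genes called higher. The lymphatic call was lost without L20_2 (0.92), without PI2_1 (just under 1, adjusted p = 0.00075) and without the sow block (0.72, adjusted p = 0.24). T and NK cells (-1.07, adjusted p = 0.0040) and macrophages (-1.36, adjusted p = 0.00013) were lower, but without the sow block neither was called (log2 difference -1.08, adjusted p = 0.13, and -1.13, adjusted p = 0.10), and the T and NK cell call was lost in 9 of 21 alternatives. The luminal difference was 1.01 with DESeq2's scaling and 1.14 to 1.17 relative to the median of all genes. Luminal and lymphatic nuclei did not differ from each other beyond their spread (0.14, SE 0.27, adjusted p = 0.69), and luminal nuclei were above fibroblasts (1.63, SE 0.27, adjusted p = 1.8e-07). In single sows the highest class for FGFR3 varied: lymphatic in 3 sows, luminal in 1, and mural, myoepithelial or Schwann-gated in 2 each. Luminal RNA was also found in nuclei of other classes: EHF, a luminal transcription factor, stood at 38.0 to 405 CPM in fibroblasts, endothelial cells, macrophages and T and NK cells summed, against 622 to 2068 CPM in luminal nuclei. EHF is a luminal gate marker, so the gate itself widens this difference. CSN2, not a gate marker, varied more between glands in that sum. It was 1368 against 1996 CPM in luminal nuclei of L0_1, 114 against 192 CPM in L20_1, 235 against 475 CPM in PI2_2, and 1.69 against 28.6 CPM in L20_2. In the same sum FGFR3 was 57.7 CPM in L20_1, 62.0 CPM in PI2_2 and 2.63 to 23.3 CPM elsewhere, and the part of free RNA in it was not tested.

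Luminal nuclei were further divided by hormone-sensing markers (ESR1, PGR, FOXA1 and TBX3), the receptors and transcription factors of the epithelial cells that respond to estrogen and progesterone. This comparison was added after the data had been seen. Between 61 and 497 nuclei per gland, 1923 in all, carried at least 2 of these markers, against 59725 other luminal nuclei. FGFR1 was 183 and 169 CPM at G90, 11.9 and 14.7 CPM at L0, 102 and 134 CPM at L20, 183 and 289 CPM at PI2, and 105 and 166 CPM at PI7 in hormone-sensing nuclei. In the other luminal nuclei it was 98.0 and 69.1 CPM at G90, 14.1 and 20.0 CPM at L0, 11.9 and 71.3 CPM at L20, 56.9 and 155 CPM at PI2, and 63.8 and 30.4 CPM at PI7. Hormone-sensing nuclei were higher in 8 of 10 sows. The exceptions were L0_1 and L0_2, whose hormone-sensing values rest on 8 and 6 UMIs. FGFR1 was called higher by 1.31 on the log2 scale (SE 0.24, adjusted p = 0.0012, edgeR with the sow as a block), where 4.54% of 13208 genes were. Depth and mixed markers were not compared between the subsets. Without the sow block the difference was 1.26 and was not called (adjusted p = 0.22).

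FGFR2 was lower in hormone-sensing nuclei in 9 of 10 sows, with a median of 49.3 CPM (19.6 to 133) against 86.1 CPM (33.4 to 280). Its log2 difference of -0.71 (SE 0.13, adjusted p = 0.0011) was under the fold needed for a call. FGFR3 differed by -0.41 (SE 0.15, adjusted p = 0.065) and was lower in 8 of 10 sows. The ligands were low in both subsets, with log2 differences of -0.12 for FGF1 (SE 0.34, adjusted p = 0.85) and -0.33 for FGF2 (SE 0.27, adjusted p = 0.40).

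**Figure D2:**
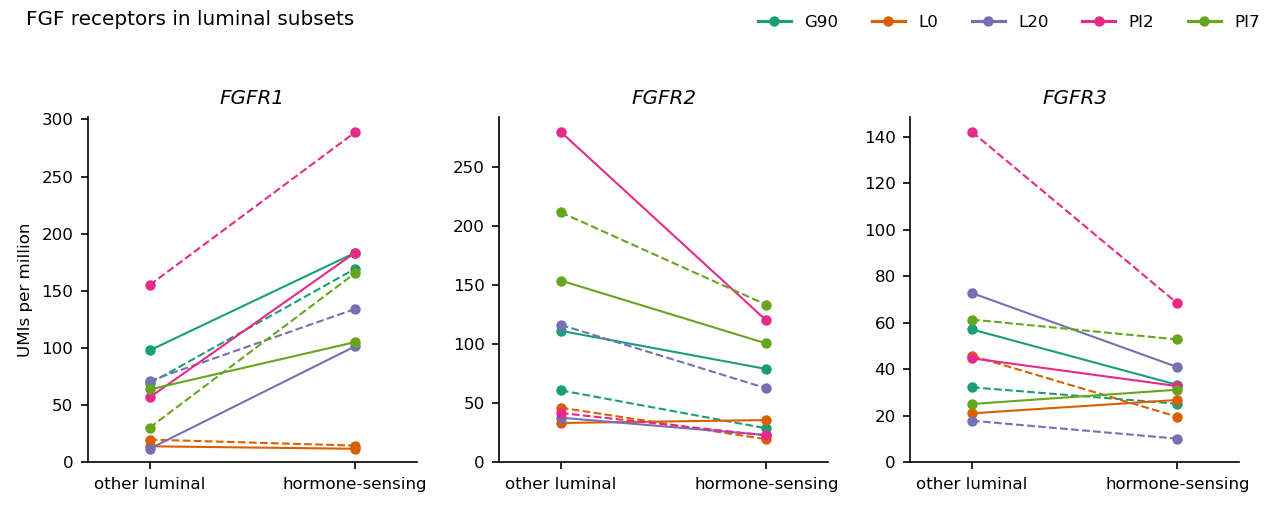
Level of FGFR1, FGFR2 and FGFR3 (CPM) in the other luminal nuclei and in hormone-sensing luminal nuclei, with a line joining the values of 1 sow, dashed for replicate 2 of a stage. For FGFR1 the line rises toward the hormone-sensing nuclei in 8 of 10 sows, and for FGFR2 it falls in 9 of 10.

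The second question was how the FGF genes change over the cycle of the gland. No difference between adjacent stages was called for any of the 6 genes, in the whole gland or within a class, with 2 sows per stage. In the whole gland no gene at all among 22695 was called by edgeR (0%), while 1652, 2912, 817 and 464 genes had an unadjusted p under 0.05 in the 4 steps from G90 to PI7. Among the 24 tests of FGF genes, 7 had an unadjusted p under 0.05, and the smallest adjusted p was 0.19. DESeq2 made 1579 calls over the 4 steps, with a gene counted once per step in which it was called, and 1 of the calls was for an FGF gene.

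That gene was FGF10. Its whole-gland level was 16.8 and 7.17 CPM at G90, 2.21 and 0.655 CPM at L0, 5.50 and 107 CPM at L20, 14.6 and 3.21 CPM at PI2, and 16.2 and 14.2 CPM at PI7. Both L0 values were the lowest of the series, and the L20 mean rests on L20_2, the gland with 28.3% fibroblasts. From L0 to L20 the log2 difference was 4.49 (SE 1.16, adjusted p = 0.19, edgeR), or 4.51 (adjusted p = 0.00055) by DESeq2. Without L20_2 it was 1.72 (adjusted p = 0.57). Within fibroblasts FGF10 stood 2.19 lower at L0 than at G90 on the log2 scale (log2 difference -2.19, SE 0.78, adjusted p = 0.87).

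Whole-gland FGF2 was 43.0 and 25.6 CPM at G90, 21.4 and 7.61 CPM at L0, 25.3 and 148 CPM at L20, 53.6 and 15.0 CPM at PI2, and 49.8 and 47.7 CPM at PI7. Its highest value was again that of L20_2. Whole-gland FGF1 was 17.2 and 4.55 CPM at G90, 2.53 and 3.53 CPM at L0, 9.04 and 23.1 CPM at L20, 18.3 and 5.40 CPM at PI2, and 33.6 and 24.8 CPM at PI7. The L0 values were the lowest and the PI7 values the highest, without overlap with any other stage. None of the 4 steps was called for FGF1 or FGF2, and the F test over the 5 stages gave an adjusted p of 0.45 for FGF1 and 0.82 for FGF2. Within fibroblasts, FGF1 had the smallest unadjusted p of the FGF genes in the F test over stages (0.0099), with an adjusted p of 0.63.

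Whole-gland FGFR1 was 129 and 75.5 CPM at G90, 21.1 and 25.9 CPM at L0, 28.1 and 102 CPM at L20, 96.3 and 160 CPM at PI2, and 93.6 and 73.4 CPM at PI7. The L0 sows lay below all others. The step from G90 to L0 was -1.68 on the log2 scale (SE 0.54, adjusted p = 0.47), and in luminal nuclei, where FGFR1 went from 105 and 70.3 CPM at G90 to 14.0 and 19.8 CPM at L0, it was -1.98 (SE 0.67, adjusted p = 0.26). With only the 4 samples of G90 and L0 in the fit, the luminal step was -2.01 with an adjusted p of 0.022, the single FGF call within a class under any alternative. In myoepithelial nuclei the step from L20 to PI2 was 1.54 (SE 0.53), with an unadjusted p of 0.012 and an adjusted p of 1.

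**Figure D3:**
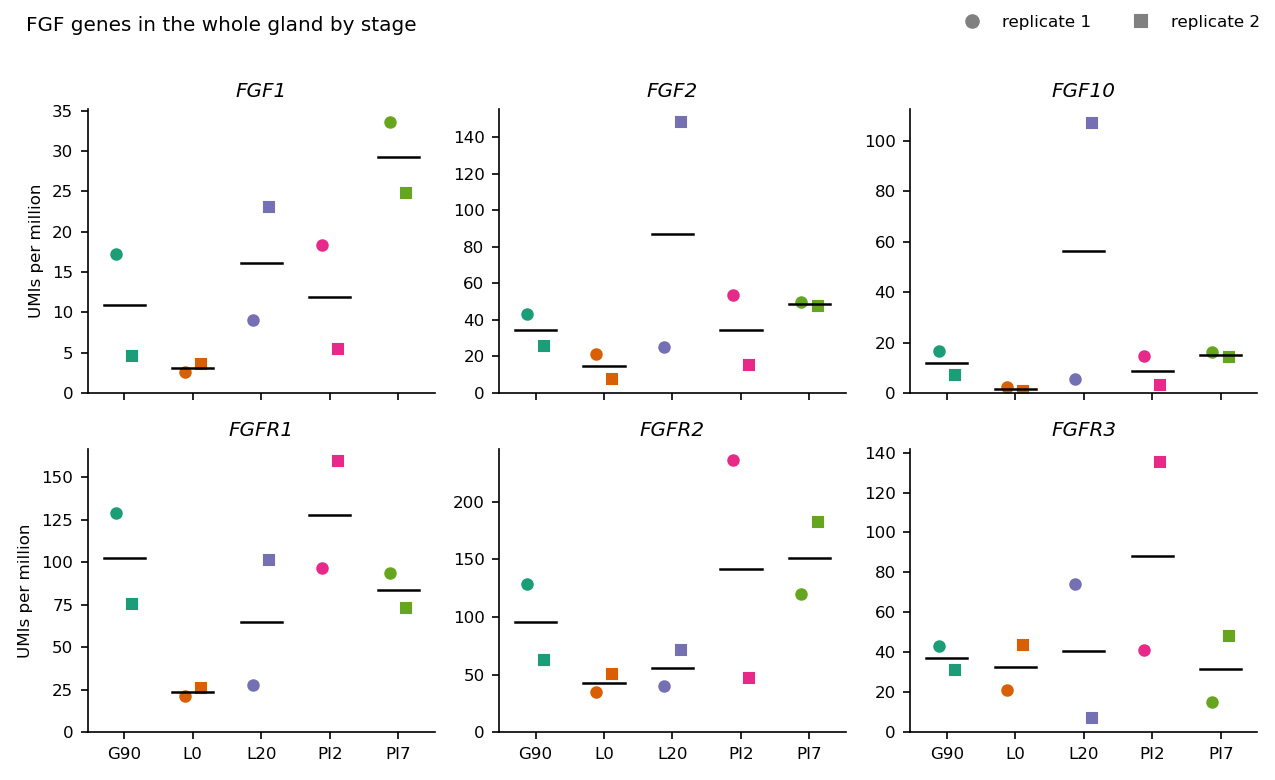
Whole-gland level of each FGF gene (CPM) by stage, with 1 point per sow and a bar at the mean of the 2 sows. The L0 sows are lowest for FGF1, FGF10 and FGFR1, and the point far above the rest at L20 for FGF10 (107 CPM) and FGF2 (148 CPM) is L20_2.

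Whole-gland FGFR2 ranged from 35.0 CPM (L0_1) over a median of 67.1 to 236 CPM (PI2_1), and FGFR3 from 7.06 CPM (L20_2) over a median of 42.3 to 135 CPM (PI2_2). At PI2 the 2 sows lay far apart for these receptors and in opposite order, with 236 and 47.5 CPM of FGFR2 and 41.5 and 135 CPM of FGFR3. The F test over stages gave an adjusted p of 0.64 for FGFR2 and 0.94 for FGFR3. In fibroblasts FGFR2 had a log2 difference of -2.46 from G90 to L0 (SE 0.74, adjusted p = 0.84) and of 2.13 from L0 to L20 (SE 0.74, adjusted p = 0.75). Stages were tested within luminal, myoepithelial, fibroblast, endothelial, lymphatic, macrophage, and T and NK cell nuclei. Over all genes, 0.00370% of the tests of single steps and 0.0999% of the F tests in these classes were called.

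Adipocytes were looked at on their own, since the study's analysis of cell interactions paired adipocyte FGF10 with FGFR1 at L20 and FGF1 with the epidermal growth factor receptor EGFR at PI2. The gate found 12 adipocyte nuclei in the G90 glands, 5 in the L0 glands, 476 in the L20 glands, 31 in the PI2 glands and 41 in the PI7 glands. At L20, 464 of them came from L20_2 and 12 from L20_1. Adipocytes were thus summed per stage and given with exact Poisson 95% intervals, which cover counting error only, and no test was made between stages. The study, which took cell types from clusters, reported its smallest share of adipocytes at L20 and its largest at G90. Its adipocytes and the gated nuclei need not be the same nuclei. ADIPOQ and the fibroblast collagen COL1A1 are gate markers, so the gate itself set their levels apart. In adipocytes ADIPOQ was 2399 CPM against 21.8 CPM in fibroblasts, and COL1A1 was 61.9 CPM against 2757 CPM. Summed over the fibroblast markers, the adipocyte gate held 2088 CPM at G90, 1717 CPM at L0, 415 CPM at L20, 1769 CPM at PI2 and 667 CPM at PI7, against 6822 to 14849 CPM in fibroblasts. The gate thus held more fibroblast RNA at G90, L0 and PI2 than at L20, and its part in the values by stage was not tested.

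Adipocyte FGF10 was 203 CPM (81.6 to 418) at G90, 191 CPM (4.83 to 1063, 1 UMI in 5 nuclei) at L0, 328 CPM (304 to 354) at L20, 17.3 CPM (2.10 to 62.6) at PI2 and 110 CPM (56.7 to 192) at PI7. The PI2 value rests on 2 UMIs and the L20 value almost wholly on L20_2. Within L20_2, where both cell types were plentiful, adipocytes had 317 CPM (293 to 343) of FGF10 and fibroblasts 248 CPM. The order was the other way in both other sows with at least 20 adipocyte nuclei, with 19.8 CPM (2.39 to 71.4, 2 UMIs) in adipocytes against 118 CPM in fibroblasts of PI2_1 and 50.8 CPM (13.8 to 130, 4 UMIs) against 84.2 CPM in PI7_1, although the PI7_1 interval held the fibroblast value. In L20_1 adipocytes were at 1495 CPM (1001 to 2147, 29 UMIs in 12 nuclei) against 40.2 CPM in fibroblasts, so no order of the cell types held over the sows. Over all stages the adipocyte level was 300 CPM (278 to 323), and 180 CPM (134 to 236) without L20_2, where 29 of the 51 remaining UMIs came from the 12 nuclei of L20_1. Among the tested classes other than fibroblasts, the highest mean of FGF10 was the 11 CPM of B and plasma cells.

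Adipocyte FGF1 was 15.3 CPM (10.4 to 21.7) at L20, 121 CPM (66.4 to 204) at PI2 and 27.4 CPM (5.66 to 80.2) at PI7, with 14 UMIs at PI2, 11 of them from 8 nuclei of PI2_2. EGFR in the same nuclei was 319 CPM (295 to 345) at L20, 806 CPM (651 to 988) at PI2 and 603 CPM (467 to 768) at PI7. The 2 L20 glands themselves gave 464 CPM of FGF1 (9 UMIs in 12 nuclei of L20_1) and 11 CPM (22 UMIs in L20_2), so the L20 sum is in effect that of 1 gland and no order of L20 and PI2 can be read from these sums. FGFR1, the receptor of the L20 pair, was 103 CPM (89.1 to 117) at L20, 95.4 CPM (47.6 to 171) at PI2 and 128 CPM (70.0 to 215) at PI7, with intervals that overlapped. FGF2 was 357 CPM (332 to 384) at L20, 86.7 CPM (41.6 to 159) at PI2 and 311 CPM (215 to 434) at PI7. Pooled over all stages adipocyte FGF2 was 342 CPM (318 to 367), and 289 CPM (230 to 359) without L20_2, beside 266 CPM in pooled fibroblasts. KLB, the beta-klotho co-receptor that lets FGF receptors bind the endocrine ligand FGF21, was among the genes that most marked the adipocyte gate. It stood at 275 CPM against 2.54 CPM in the other gated nuclei, pooled over sows, so that most of the adipocyte nuclei were from L20_2.

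The tissue sections gave a view of the FGF genes without dissociation. Each section is a single sample, so the values have no replicate and no test, and intervals cover counting error only. FGF1 was 6.49 CPM (5.75 to 7.30) in the G90 section and 14.2 CPM (12.5 to 16.0) in the PI2 section, a ratio of 2.18, and FGFR2 was 23.1 CPM (21.6 to 24.5) and 49.1 CPM (45.9 to 52.4), a ratio of 2.13. FGF2 was 18.7 CPM (17.4 to 20.0) at G90 and 10.3 CPM (8.84 to 11.9) at PI2, a ratio of 0.551. FGFR1 (42.4 and 46.9 CPM), FGF10 (3.18 and 3.07 CPM) and FGFR3 (16.7 and 15.6 CPM) had ratios of 1.11, 0.967 and 0.934. The section held all cell types at once, so a different mix of cells and a different level per cell cannot be told apart.

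Spots were then divided by their share of UMIs from the fibroblast, adipocyte and luminal markers, the top 10% of spots of each section against the rest. In both sections the fibroblast-rich and adipocyte-rich spots held fewer UMIs per spot than the rest, and the part of depth was not tested. FGF2 was higher in the fibroblast-rich spots of both sections, with 39.8 CPM (30.0 to 51.8) against 18.0 CPM in the rest at G90 and 35.9 CPM (21.6 to 56.1) against 9.50 CPM at PI2. It was also higher in adipocyte-rich spots at G90 (32.3 CPM, 22.9 to 44.4, against 18.3 CPM), though with the top 20% of spots the interval (17.9 to 27.5 CPM) held the value of the rest, and at PI2 the interval of 8.07 to 22.9 CPM held the value of the rest (10.0 CPM). FGFR1 was higher in fibroblast-rich spots at G90 (61.6 CPM, 49.2 to 76.1, against 41.8 CPM), and at PI2 the interval of 35.2 to 76.5 CPM held the value of the rest (46.7 CPM). FGFR2 was at 7.56 CPM (2.06 to 19.4) in fibroblast-rich spots of PI2 against 50.4 CPM in the rest, a value of 4 UMIs that became 12.4 CPM (7.08 to 20.1) against 51.9 CPM with the top 20% of spots. At G90 it was 17.4 CPM, with an interval that held the 23.2 CPM of the rest, and with the top 20% it was 14.8 CPM (11.3 to 19.1) against 23.9 CPM. In adipocyte-rich spots FGFR2 was 11 CPM (5.89 to 18.9) at G90 against 23.4 CPM in the rest and 27.3 CPM (18.6 to 38.8) at PI2 against 50.6 CPM, but at PI2 the top 20% of spots gave 49.5 CPM against 48.9 CPM. FGFR2 was higher in luminal-rich spots at G90 (33.0 CPM, 27.4 to 39.5, against 22.1 CPM) but not at PI2 (40.9 CPM, 32.2 to 51.2, which holds the value of the rest). FGFR3 in luminal-rich spots was 42.5 CPM (33.7 to 53.0) at PI2 against 12.5 CPM in the rest, and 21.2 CPM (16.7 to 26.5) at G90 against 16.3 CPM. FGF10 gave only 2 to 9 UMIs in these spots of either section. With the top 20% of spots in place of 10%, fibroblast-rich spots of G90 held 23 UMIs of FGF10, 5.77 CPM (3.66 to 8.66) against 2.91 CPM (2.40 to 3.50) in the rest, and those of PI2 held 4. That choice also lowered FGF2 in fibroblast-rich spots of PI2 to 22.5 CPM (15.0 to 32.3, against 9.33 CPM in the rest) and FGFR3 in luminal-rich spots of PI2 to 28.2 CPM (23.1 to 34.0, against 12.2 CPM).

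**Figure D4:**
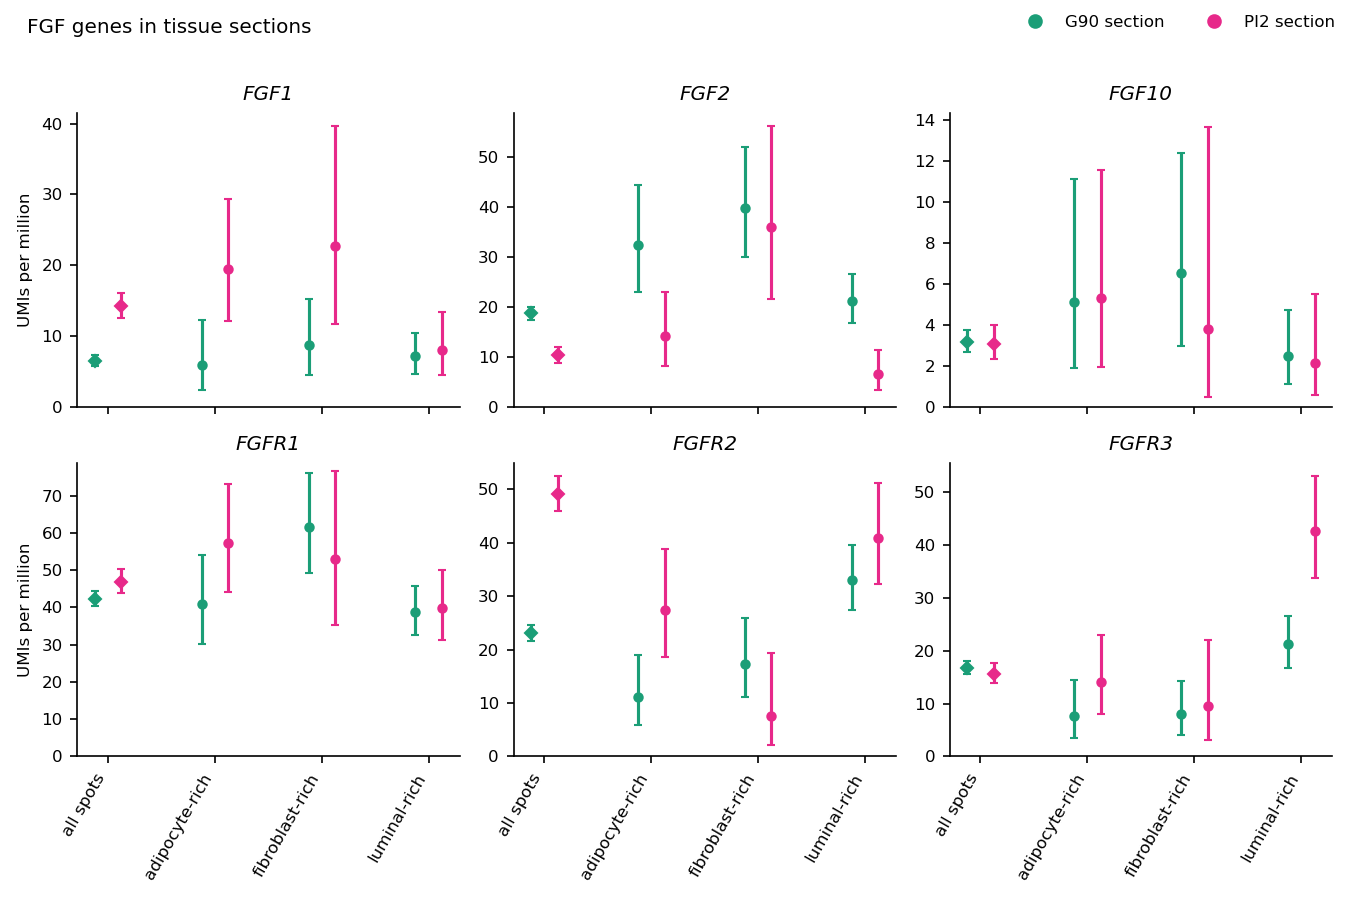
Level of each FGF gene (CPM) over all spots and in the spots richest in adipocyte, fibroblast or luminal markers, for the G90 and the PI2 section, with exact Poisson 95% intervals as bars. FGF2 is highest in fibroblast-rich spots of both sections, where FGFR2 at PI2 is lowest (7.56 CPM).

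In milk the FGF genes were at low counts. Of 32085 milk cells kept, granulocytes made up 9901 of the colostrum cells and 6423 of the mature milk cells, and luminal cells 2932 and 1050. FGFR3 had 281 UMIs in colostrum (3.47 CPM, 3.08 to 3.90), 267 of them in luminal cells, and 31 in mature milk (0.722 CPM, 0.490 to 1.02). Luminal milk cells carried 4.76 CPM (4.20 to 5.36) of FGFR3 in colostrum and 2.69 CPM (1.74 to 3.97) in mature milk, both under the lowest luminal value among the glands (17.0 CPM). FGFR2 in all milk cells was 1.58 and 0.838 CPM, FGFR1 0.790 and 0.489 CPM, FGF1 0.827 and 0.303 CPM, FGF2 0.679 and 0.186 CPM and FGF10 0.370 and 0.210 CPM. No FGF10 UMI was found among 9302419 UMIs of luminal cells in mature milk, which allows up to 0.322 CPM. Gland libraries hold nuclear RNA and milk libraries whole-cell RNA, so the values of glands and milk cannot be compared as levels per cell.

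Other genes of the pathway were taken from lists of related ligands, co-receptors, adaptors, feedback regulators and heparan sulfate genes. All 14 other FGF ligands were in the gene lists and none passed the filter on low counts in the class comparison. Of 13 feedback regulators and targets of FGF signalling, 12 were tested, and 8 were higher in fibroblasts (median log2 difference 1.35 over the 12, where 8.75% of all genes were called higher), 4 in mural cells, 4 in endothelial cells, 3 in myoepithelial nuclei and 2 in lymphatic nuclei, where 6.48%, 8.55%, 6.62% and 8.68% of all genes were. In luminal nuclei, macrophages, and T and NK cells 4 of the 12 were lower in each, beside 14.3%, 11.0% and 7.69% of all genes, and 2 in B and plasma cells, beside 3.55%. SPRY4, an inhibitor of receptor tyrosine kinase signalling, was highest in mural cells (36.0 CPM against 4.23 CPM in the other classes, log2 difference 3.78). The transcription factor genes ETV5 and ETV1, targets of FGF signalling in many tissues, were higher in myoepithelial nuclei (58.7 against 8.61 CPM, log2 difference 3.01) and in fibroblasts (90.1 against 20.9 CPM, 2.53). These genes also respond to other growth factors.

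Of 19 genes tied to heparan sulfate, the sugar chains that FGFs need for receptor binding, 15 were tested. The list held enzymes that make or trim the chains, proteins that carry them, and binding proteins. In fibroblasts 6 were higher (8.75% of all genes were) and 1 lower (2.87%), in myoepithelial nuclei 4 were higher and 2 lower (6.62% and 6.35% of all genes), and in luminal nuclei 3 were higher and 4 lower (8.08% and 14.3%). Mural, endothelial and lymphatic nuclei had 3 higher each (6.48%, 8.55% and 8.68% of all genes). In macrophages 3 were lower and in T and NK cells 2 (11.0% and 7.69%). Any other class or direction had at most 1 call. HS3ST1, a sulfotransferase, was higher in lymphatic nuclei (log2 difference 3.24), and HSPG2, the basement membrane proteoglycan perlecan, was higher in endothelial nuclei (3.05). SULF1, a secreted enzyme that removes sulfate groups from the chains, was lower in luminal nuclei (-2.76, 12.8 against 127 CPM). PLCG1, an enzyme that binds active FGF receptors, was higher in lymphatic (2.53) and endothelial nuclei (1.51) and lower in macrophages (-1.68). FGFRL1, a receptor relative without a kinase, was higher in luminal nuclei (1.40, 45.5 against 20.5 CPM), and FGF12, an FGF relative that stays in the cell, in myoepithelial nuclei (1.33) and mural cells (1.18). No gene of these lists was called between adjacent stages, in the whole gland or in a class.

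Genes whose pattern was most like each FGF gene were found over the 94 sums of a sow and a class, among 10215 candidates that were not gate markers. Nearest to FGF10 were ALX4 (Pearson r = 0.76), ZNF385D (0.75) and MFAP2 (0.70), and nearest to FGF2 were SERP2 (0.74), SPARC (0.73) and COL12A1 (0.72). PRRX1 (0.65), BHLHE41 (0.63) and IFT140 (0.63) were nearest to FGF1. FGFR1 was closest to HHAT (0.75), PLPP3 (0.74) and PLCB1 (0.73), and FGFR2 to FHOD3 (0.80), CDK5RAP1 (0.73) and ISM1 (0.72). FGFR3 had the weakest neighbours, ARFGAP2 (0.57), MORC2 (0.57) and NSMF (0.56). Sums of 1 sow share a library and classes differ in depth, so these values are a description.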

How the data were processed

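The authors sequenced nuclei and milk cells with GEXSCOPE kits and counted UMIs per gene with CeleScope on Sscrofa11.1; sections were counted with Space Ranger (1.2.0 in the submitters' processing notes). The deposited counts are whole UMI counts without normalization, removal of free RNA or removal of doublets, and the deposited tables hold 0 columns of other samples. Here nuclei and cells were kept that had 300 genes or more and no more than 25% of their UMIs from mitochondrial genes, as in the study, and all 6969 spots. A nucleus went to the class with the most markers detected, at least 2 and more than any other class. A tie between endothelial and lymphatic markers went to the lymphatic class. Each class had 8 listed markers, of which 6 were found for myoepithelial nuclei, 7 each for lymphatic, macrophage and Schwann nuclei, and 5 for granulocytes. Nuclei that carry markers of several classes were kept, and an alternative left them out.

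UMIs were summed per sow and class (at least 20 nuclei, at least 5 sows) and tested with edgeR 4.0.16 (quasi-likelihood, TMM, its filter on low counts). Class tests had the sow as a block. Stage tests (5 stages, 2 sows each) were fitted together without a block. DESeq2 1.42.0 was an alternative. The scripts were tested on simulated data. Sections and milk have 1 sample per stage and got no test. Intervals are exact Poisson 95% intervals, and a count of 0 was taken to allow 3 counts. UMIs of a library with 18962138 to 53165191 UMIs put 1 count at well under 1 CPM in the whole gland, but at about 15.3 CPM in the smallest fibroblast sum. The sows are separate animals, and samples of a stage differed far beyond counting noise (chi-square per gene 53.2 to 433).

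The genes named are all listed FGF genes, EGFR, the 3 nearest genes of each by Pearson correlation of log2(CPM + 1) among genes with at least 10 CPM, and the 3 largest called changes per pathway list. COL1A1, ADIPOQ, EHF, ELF5, CSN2 and KLB are named beyond this rule, after their values were seen. The FGF genes, lists and tests were chosen with earlier results of these data known. No protein or promoter sequence was used here.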

Additional observations from a re-analysis of the deposited data

Results flagged for a closer look

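Glands were compared in 20 sets, of 10 glands each or 9 for mural cells. The sets were the 6 FGF genes in the whole gland, genes in classes called higher, luminal FGFR2, and FGFR1 and FGFR2 in hormone-sensing nuclei. In 4 sets 1 gland lay farther from the rest than Dixon's test allows at 95%. All flags came from L20_2 and PI2_2, so the sets are not independent. A rate of 1 in 20 by chance would need independent, normally distributed values. The glands of a set span 5 stages, so such a gland can differ by stage as well as by sow, and this was not tested.

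FGF10 in the whole gland was 107 CPM in L20_2, with 16.8 CPM as the next value. FGF2 in the whole gland was 148 CPM in L20_2, with 53.6 CPM next. In that gland 28.3% of nuclei were fibroblasts, against 0.511% in the gland with fewest, and its fibroblast FGF10 (248 CPM) and FGF2 (331 CPM) lay inside the range of the other sows' fibroblasts. It also held 464 of the 565 adipocyte nuclei, with 317 CPM of FGF10. The part of either class in its whole-gland values was not tested. FGFR3 was 135 CPM in the whole PI2_2 gland, with 74.1 CPM next, and 140 CPM in its luminal nuclei, with 71.5 CPM next.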

How the results depend on the processing

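Of the 25 class calls, 18 were kept under every alternative (DESeq2, no sow block, RLE scaling, no filter, stricter nuclei, other gates, other nuclei minimums, each sow left out, lactation glands left out), 7 were lost in at least 1 and 0 reversed. The lost calls were luminal FGF2, myoepithelial FGF10, lymphatic FGFR3, macrophage FGFR1 and FGFR3, T and NK cell FGFR3, and B and plasma cell FGF2. With no filter on low counts luminal FGFR2 was called in addition (1.33). Over all 60 class tests the count of calls was 21 without the sow block and 23 to 25 with a sow left out. These totals can include calls that were not among the 25, and the removal of any sow lost some of the 25. FGFR3 in luminal against lymphatic nuclei, not called, reversed to -0.056 with DESeq2 and -0.15 with RLE scaling, and ranged from -0.044 to 0.34 with a sow left out. FGF genes called between stages in the whole gland numbered 0, and 1 with DESeq2 or with no filter on low counts (FGF10, L20 against L0). Within classes they numbered 0, and 1 when each fit held 2 stages alone (luminal FGFR1). Over all genes, the whole-gland steps gave 0 calls, 1579 with DESeq2, 305 with no filter and 407 with 2 stages per fit, and the steps within classes gave 12, 2188, 1864 and 1141. The replicate block left 0 FGF calls between stages. The labels do not say what a replicate number stands for. Same-numbered sows deviated together (r over 0.1) in 2 of 10 pairs of stages, with r from -0.53 to 0.38. FGFR1 between luminal subsets was lost without the block (0 calls). FGF1 in luminal cells of mature milk, 1 UMI, was 0 with a gate of 3 markers. The cause of these changes was not tested. Depth limits FGF10 and FGF1, of which many class sums held 0 to 3 UMIs, and in some classes other FGF genes too. FGFR3 held 55 UMIs in T and NK cells and 61 in macrophages, pooled over sows.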
